A study of Mus musculus with 24 samples.

Results

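The 10 genes described here encode proteins that sense, edit or degrade nucleic acids inside the cell: Ifih1, Dhx58, Mavs, Zbp1, Eif2ak2, Adar, Samhd1, Trex1, Ifi204 and Ifi207. They were given as a list of names, drawn up with earlier results of these data known, and all 10 matched a row among the 55487 genes of the deposited count table. All 10 also passed the filter on low counts that left 17139 genes. RNA was sequenced from cells that had been drawn from dissociated adult mouse brain with magnetic beads against CD11b, a surface integrin of microglia and other myeloid cells. The mice were males of 8 to 10 weeks. The MIA groups were offspring of mothers with immune activation in pregnancy, and the control groups were offspring without it. The agent and the day of the prenatal exposure, and the strain, are not given in the sources used here. Mice had an intraperitoneal injection of lipopolysaccharide (LPS, a bacterial cell-wall product, 4500 endotoxin units per gram of body weight) or of saline, and cells were taken 18 h later from striatum or frontal cortex. The 8 groups were MIA striatum LPS, MIA striatum saline, control striatum LPS, control striatum saline, MIA cortex LPS, MIA cortex saline, control cortex LPS and control cortex saline, with 3 libraries in each. MIA striatum LPS replicate 3 is marked as excluded in its title and was set aside, which left 2 libraries in that group and 23 in all.

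Nucleic acids in the cytosol are a sign of infection or of damage, and a small set of proteins reads them. Ifih1 (MDA5) binds long double-stranded RNA and passes the signal to Mavs, an adaptor on the mitochondrial membrane that leads to type I interferon, and Dhx58 (LGP2) is a relative of Ifih1 that modulates it. Zbp1 binds Z-form nucleic acid and can start necroptosis, and Eif2ak2 (PKR) is a kinase that stops translation when it binds double-stranded RNA. Adar edits adenosine to inosine and so alters self double-stranded RNA, while Samhd1 and Trex1 keep the pools of deoxynucleotides and of stray DNA low. Ifi204 and Ifi207 belong to the mouse PYHIN family (also called p200), of which several members bind DNA. Many of these genes are themselves interferon-stimulated in other settings, and microglia are a main source of the innate response in brain.

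Levels are given in CPM, which are counts divided by the scaled size of each library. Fold changes are log2 values with their standard error (SE) from edgeR's quasi-likelihood test, fitted to all 8 groups at once. A call means an adjusted p under 0.05, by Benjamini-Hochberg over all 17139 genes. The labels do not say whether replicates are separate animals or which litter they came from, so p-values reflect only how these libraries vary, and a difference between MIA and control cannot be told apart from one between litters. Nor do they say whether cortex and striatum libraries of 1 number share an animal, so tests over both regions may count an animal more than once. Total counts ran between 19453295 and 29480499 per library. The 8 microglial markers (P2ry12, Tmem119, Cx3cr1 and others) were detected in every library and summed to between 27988 and 58648 CPM. Markers of other myeloid cells moved with LPS. The 6 blood monocyte markers summed to 85.4 to 142 CPM in MIA striatum LPS and 11.9 to 18.8 CPM in MIA striatum saline, and to 185 to 311 CPM in control cortex LPS and 27.5 to 44.9 CPM in control cortex saline. They summed to 99.4 to 240.4 CPM in control striatum LPS and 15.90 to 18.99 CPM in control striatum saline, and to 125 to 149 CPM in MIA cortex LPS and 41.6 to 88.4 CPM in MIA cortex saline. The 6 neutrophil markers summed to 185 to 647 CPM over the LPS groups and 9.49 to 436 CPM over the saline groups, highest at rest in MIA cortex. With LPS, 5 monocyte and 5 neutrophil markers were called higher in MIA striatum, 5 and 6 in control striatum, 3 and 1 for MIA cortex, and 5 and 5 for control cortex. Of the 8 microglial markers, 4 were called lower in MIA striatum, 5 in control striatum, 6 for MIA cortex and 7 for control cortex, and 0 higher. In control striatum 5 of 8 endothelial and pericyte, 2 of 8 neuronal and 2 of 6 oligodendrocyte markers were also called lower, and 0 higher. After LPS over both regions no monocyte or neutrophil marker was called between MIA and control. Of the 6 border-associated macrophage markers, 3 were called higher with LPS in MIA striatum, the only group with any called higher. There the 6 summed to 760 to 1061 CPM after LPS and 281 to 420 CPM after saline (median log2 difference 1.07). In control striatum 0 were called higher and 1 lower, with sums of 293 to 485 CPM after LPS and 346 to 434 CPM after saline. In cortex the counts were also 0 and 1, for MIA (453 to 1192 CPM after LPS and 549 to 954 CPM after saline) and for control (366 to 883 CPM after LPS and 642 to 985 CPM after saline). The difference of that list between MIA and control striatum after LPS had a median of 1.25, with 0 of 6 called. Only Ly6g among the monocyte and neutrophil lists was at 0 in any library. Their part in the results below was not tested.

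Among the 23 libraries used, 1 stood apart from its group. MIA cortex LPS replicate 3 lay above replicates 1 and 2 of its group for 10 of 10 sensors, against 36.6% of all genes tested. Its ratio to the mean of replicates 1 and 2 was 6.58 for Zbp1, 3.28 for Dhx58 and 3.04 for Ifi204, and 1.05 for Mavs. Its 8 neuronal markers summed to 218 CPM (28.2 and 22.3 CPM in replicates 1 and 2) and its 6 oligodendrocyte markers to 1556 CPM (283 and 311 CPM), while its monocyte markers, at 125 CPM, were not above the other pair (131 and 149 CPM). MIA striatum LPS replicate 3, which was set aside, bears the same number. It too lay above both other libraries of its group for Dhx58, Zbp1, Eif2ak2, Samhd1, Trex1 and Ifi204, but not for the other sensors. With both left aside, the MIA LPS libraries are all of number 1 or 2. Results that rest on MIA cortex LPS replicate 3 are given with and without it. That library stood out by its high sensor levels, so leaving it out lowers the sensors in MIA cortex LPS by construction.

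Promoter sequences were read for 7 of the 10 genes (Ifih1, Mavs, Eif2ak2, Adar, Samhd1, Trex1 and Ifi207) from RefSeq on GRCm38.p6, as the 300 bases from 250 before to 50 after the annotated start. They were searched on both strands for the core of the interferon-stimulated response element (ISRE), written as GAAA, any 2 bases and GAAA again. The core was present in 3 of the 7 genes, against 3.44% of 32851 promoters in the table. Such counts are per gene and the shares per promoter, and Adar has 3 listed promoters and Trex1 has 2. Those 3 promoters are printed because they hold the core. That of Mavs is printed because Mavs was not called in any comparison of the main fit (all 8 groups, no replicate block). The listed promoters of Adar, Samhd1 and Trex1, which also rose with LPS in control mice, had no core and are not printed. The printed sequences lie on their gene's strand, 5′ to 3′, with the ISRE core in capitals.
Ifih1, chr2:62646206-62646505, minus strand: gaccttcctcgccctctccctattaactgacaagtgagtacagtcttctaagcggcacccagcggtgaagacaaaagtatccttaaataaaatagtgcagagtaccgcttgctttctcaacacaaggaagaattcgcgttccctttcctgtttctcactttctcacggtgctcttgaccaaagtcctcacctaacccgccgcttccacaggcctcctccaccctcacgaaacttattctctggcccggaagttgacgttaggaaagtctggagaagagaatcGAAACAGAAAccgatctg
Eif2ak2, chr17:78882523-78882822, minus strand: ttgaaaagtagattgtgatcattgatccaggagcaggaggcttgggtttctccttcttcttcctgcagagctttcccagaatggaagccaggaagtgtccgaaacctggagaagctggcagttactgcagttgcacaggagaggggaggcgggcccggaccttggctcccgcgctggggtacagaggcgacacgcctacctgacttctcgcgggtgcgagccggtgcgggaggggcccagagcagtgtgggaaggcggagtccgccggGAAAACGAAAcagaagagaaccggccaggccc
Ifi207, chr1:173741760-173742059, minus strand: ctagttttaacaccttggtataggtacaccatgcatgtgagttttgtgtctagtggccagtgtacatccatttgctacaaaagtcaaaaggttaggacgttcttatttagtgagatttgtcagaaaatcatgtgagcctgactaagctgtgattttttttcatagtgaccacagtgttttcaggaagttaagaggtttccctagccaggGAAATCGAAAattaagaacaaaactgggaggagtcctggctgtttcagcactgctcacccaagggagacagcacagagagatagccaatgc
Mavs, chr2:131233813-131234112, plus strand: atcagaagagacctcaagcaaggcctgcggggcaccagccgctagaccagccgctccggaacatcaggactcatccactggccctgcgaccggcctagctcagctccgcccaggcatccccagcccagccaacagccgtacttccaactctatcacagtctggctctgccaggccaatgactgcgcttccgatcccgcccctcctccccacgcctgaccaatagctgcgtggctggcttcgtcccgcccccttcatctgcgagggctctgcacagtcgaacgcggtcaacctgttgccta
The core begins at base 283 of the window in Ifih1, at base 269 in Eif2ak2 and at base 210 in Ifi207. The Mavs window has no match. The STAT-type core TTCNNNGAA (GAS), which is its own reverse complement, was present in Eif2ak2, Samhd1 and 1 of 3 listed Adar promoters, against 8.3% of promoters. A match describes these letters and does not show that a factor binds.

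In control mice, LPS raised nearly the whole set in both regions. In control striatum 9 of the 10 sensors were called higher, against 12.7% of all genes tested, and in control cortex 9 of 10, against 10.9%. The median log2 fold change over the 10 was 1.41 in control striatum (all genes -0.02) and 1.56 in control cortex (all genes 0.04). Mavs was the exception in both regions. In bulk RNA a higher level can come from more RNA per cell or from more cells of a type, and these cannot be told apart.

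The RNA helicases Ifih1 and Dhx58 were called higher in control mice, while the adaptor Mavs had smaller values above 0 and was not called. Ifih1 stood at 103, 79.5 and 95.2 CPM in control striatum LPS, against 44.3, 42.0 and 41.5 CPM in control striatum saline, and the groups did not overlap. Its log2 fold change was 1.12 ± 0.24 there (adjusted p = 0.00175) and 1.07 ± 0.24 in control cortex (adjusted p = 0.0027). Dhx58 changed more and varied more among the striatal LPS libraries. It stood at 33.2, 39.5 and 68.2 CPM in control striatum LPS and at 11.0, 9.02 and 10.8 CPM in control striatum saline. In cortex it stood at 73.4, 65.3 and 84.8 CPM in control LPS and 16.1, 14.6 and 13.9 CPM in control saline. The log2 fold change of Dhx58 was 2.20 ± 0.35 in control striatum (adjusted p = 0.00012) and 2.33 ± 0.35 in control cortex (adjusted p = 7.34e-05). Mavs stood at 106, 84.8 and 114 CPM in control striatum LPS and at 87.5, 74.8 and 96.0 CPM in control striatum saline, and these ranges overlapped. Its log2 difference was 0.23 ± 0.17 there (adjusted p = 0.359) and 0.26 ± 0.17 in control cortex (adjusted p = 0.331).

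Zbp1, the Z-nucleic acid sensor, had the largest fold change of the 10 in both regions of control mice. It stood at 56.7, 39.0 and 69.2 CPM in control striatum LPS, against 2.37, 1.58 and 1.24 CPM in control striatum saline. In cortex it stood at 67.8, 70.0 and 82.2 CPM in control LPS, against 2.76, 2.23 and 2.01 CPM in control saline. Every control LPS library lay far above every saline library, with a fold change of 32.1 in striatum (log2 5.00 ± 0.59, adjusted p = 3.78e-06) and 31.3 in cortex (log2 4.97 ± 0.58, adjusted p = 4.24e-06). Eif2ak2, the kinase PKR, moved less. It stood at 18.3, 22.9 and 27.4 CPM in control striatum LPS, against 13.002, 10.2 and 10.4 CPM in control striatum saline (log2 fold change 1.03 ± 0.30, adjusted p = 0.0163). That call was lost without LPS replicate 3 (adjusted p = 0.0679), saline replicate 2 (0.0648) or saline replicate 3 (0.0656). In control cortex LPS the spread of Eif2ak2 was narrow, at 34.9, 33.9 and 32.6 CPM, against 14.5, 15.3 and 14.7 CPM in control cortex saline (log2 fold change 1.19 ± 0.30, adjusted p = 0.00695).

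Of the editor and nucleases, Trex1 rose most. Trex1, a DNA exonuclease, stood at 286, 267 and 368 CPM in control striatum LPS, against 83.2, 96.4 and 104 CPM in control striatum saline. In cortex the values were 320.1, 349 and 401 CPM in control LPS, against 101, 96.8 and 82.6 CPM in control saline. The groups were well apart, with log2 fold changes of 1.70 ± 0.18 in striatum (adjusted p = 1.52e-06) and 1.93 ± 0.18 in cortex (adjusted p = 3.62e-07). Samhd1, a hydrolase of deoxynucleotides, moved less, with 96.4, 61.9 and 83.4 CPM in control striatum LPS and 53.9, 44.6 and 37.8 CPM in control striatum saline (log2 fold change 0.83 ± 0.20, adjusted p = 0.00525). In cortex its log2 fold change was 0.89 ± 0.20 (adjusted p = 0.00312). Adar, the RNA editor, was called in both regions, but its striatal libraries overlapped: 51.3, 90.8 and 139 CPM in control striatum LPS, against 52.4, 46.1 and 38.0 CPM in control striatum saline (log2 fold change 1.04 ± 0.29, adjusted p = 0.0146). Without LPS replicate 3 the striatal value of Adar was 0.64 (adjusted p = 0.129), and the call was also lost without saline replicate 3 (adjusted p = 0.0734) and with only the compared groups in the fit (0.0638). In cortex Adar stood at 86.9, 102 and 150.2 CPM in control LPS and 55.6, 48.1 and 49.4 CPM in control saline, without overlap (log2 fold change 1.15 ± 0.29, adjusted p = 0.00848; without LPS replicate 3, 0.89, adjusted p = 0.0518).

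The PYHIN pair had the next largest changes after Zbp1. Ifi204 stood at 188, 260.1 and 312 CPM in control striatum LPS, against 10.1, 13.8 and 11.5 CPM in control striatum saline. In cortex it stood at 293, 267 and 355 CPM in control LPS, against 11.4, 15.2 and 23.9 CPM in control saline. The fold change of Ifi204 was 21.5 in control striatum (log2 4.42 ± 0.38, adjusted p = 1.16e-07) and 18.1 in control cortex (log2 4.18 ± 0.38, adjusted p = 1.95e-07). Ifi207 stood at 196, 151 and 169 CPM in control striatum LPS, against 13.5, 19.8 and 11.4 CPM in control striatum saline. In cortex it stood at 173, 150.4 and 256 CPM in control LPS, against 21.2, 18.2 and 21.0 CPM in control saline. Both groups were separate in both regions, with log2 fold changes of 3.53 ± 0.32 in striatum (adjusted p = 2.01e-07) and 3.26 ± 0.32 in cortex (adjusted p = 4.48e-07). Deposited values of Ifi204 were not whole numbers in 23 of 23 libraries, as RSEM gives where reads fit more than 1 gene, and those of Ifi207 were whole in all 23. When both were summed into 1 feature, the number of called sensors (of 9) was the same or lower by 1 in every comparison. A loss of 1 follows from the sum wherever both had been called. As values of Ifi207 were whole, the sum does not test how reads of Ifi204 were shared.

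**Figure D1:**
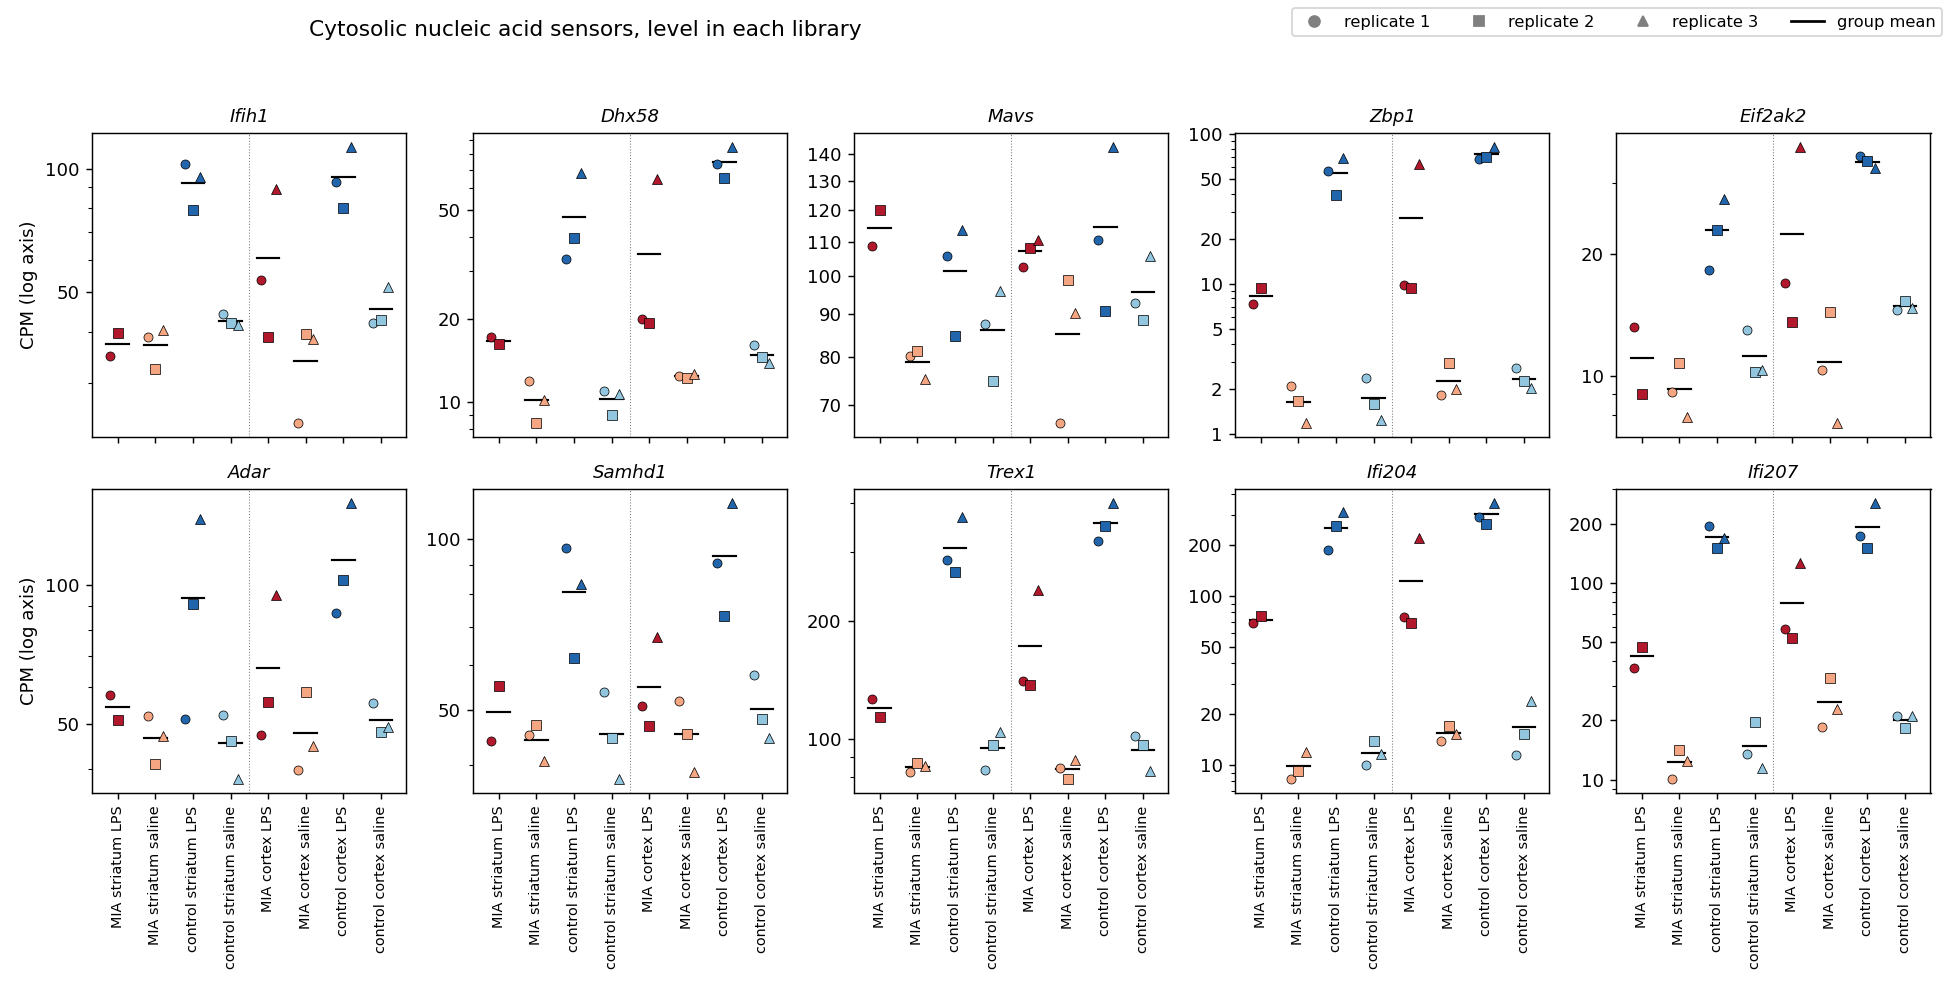
Level of each of the 10 sensors in every library used, in CPM on a log axis, with striatum to the left of the dotted line and cortex to the right. Points are libraries, shaped by replicate number, and bars are group means (n = 3, or 2 in MIA striatum LPS). Zbp1 stands between 39.0 and 82.2 CPM in the 6 control LPS libraries and between 1.17 and 2.96 CPM in the 12 saline libraries, and the triangle of MIA cortex LPS lies above the other libraries of its group.

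In MIA mice fewer of the sensors were called. In MIA striatum 3 of 10 were called higher (all genes 6.93%), namely Zbp1, Ifi204 and Ifi207, and the median log2 fold change was 0.52 (all genes -0.06). In MIA cortex 7 of 10 were called higher (all genes 7.05%), all but Mavs, Adar and Samhd1, with a median of 1.05 (all genes 0.01). Without MIA cortex LPS replicate 3 the count in MIA cortex was 4 (Zbp1, Trex1, Ifi204 and Ifi207) and the median 0.57, and with only the compared groups in the fit it was also 4. With the excluded library added back, 5 were called in MIA striatum.

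Ifih1 was near its resting level in MIA striatum after LPS. It stood at 34.9 and 39.7 CPM in MIA striatum LPS and at 38.9, 32.4 and 40.4 CPM in MIA striatum saline, a log2 difference of 0.00 ± 0.26 (adjusted p = 1). In cortex Ifih1 stood at 53.5, 38.8 and 89.4 CPM in MIA LPS and at 23.9, 39.5 and 38.4 CPM in MIA saline, and the groups overlapped (log2 fold change 0.84 ± 0.24, adjusted p = 0.0229). Without LPS replicate 3 the value for Ifih1 was 0.43 (adjusted p = 0.197), and without saline replicate 1 it was 0.62 (adjusted p = 0.152). Dhx58 stood at 17.2 and 16.3 CPM in MIA striatum LPS, above the 11.9, 8.39 and 10.2 CPM of MIA striatum saline, but was not called (log2 difference 0.72 ± 0.37, adjusted p = 0.279). In MIA cortex LPS it stood at 20.1, 19.4 and 64.6 CPM, against 12.4, 12.2 and 12.7 CPM in MIA cortex saline (log2 fold change 1.48 ± 0.34, adjusted p = 0.00601; without replicate 3, 0.65, adjusted p = 0.0771). Mavs was higher in every LPS library than in every saline library of both MIA groups, at 109 and 120.1 CPM against 80.3, 81.3 and 75.3 CPM in striatum, yet was not called there (log2 difference 0.53 ± 0.18, adjusted p = 0.0736) or in cortex (0.33 ± 0.17, adjusted p = 0.246). With only the compared groups in the fit Mavs was called in MIA striatum (0.53, adjusted p = 0.0248).

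Zbp1 rose in both MIA groups. It stood at 7.29 and 9.36 CPM in MIA striatum LPS, against 2.08, 1.66 and 1.17 CPM in MIA striatum saline, a fold change of 5.10 (log2 2.35 ± 0.58, adjusted p = 0.0104). That call was lost without LPS replicate 2 (log2 2.11, adjusted p = 0.107) or saline replicate 3 (2.10, adjusted p = 0.0555). In cortex it stood at 9.86, 9.33 and 63.1 CPM in MIA LPS, against 1.81, 2.96 and 1.99 CPM in MIA saline, so that 1 library lay close to the control cortex LPS range and the other two far below it. The log2 fold change of Zbp1 in MIA cortex was 3.61 ± 0.55 (adjusted p = 0.000135), and 2.08 without replicate 3 (adjusted p = 6.57e-05). Eif2ak2 overlapped between treatments in both MIA groups, at 13.2 and 8.99 CPM in MIA striatum LPS against 9.12, 10.7 and 7.89 CPM in MIA striatum saline (log2 difference 0.26 ± 0.33, adjusted p = 0.72). In cortex it was called with replicate 3 (1.06 ± 0.30, adjusted p = 0.0218) and not without it (0.49, adjusted p = 0.219), without saline replicate 1 (adjusted p = 0.0773) or without saline replicate 3 (0.0993).

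Trex1 stood at 127 and 114 CPM in MIA striatum LPS and 82.5, 86.7 and 85.3 CPM in MIA striatum saline. The libraries did not overlap, but the log2 difference of 0.50 ± 0.20 was not called (adjusted p = 0.128). It was called with only the compared groups in the fit (0.50, adjusted p = 0.0279) and with replicate 3 added back (1.11, adjusted p = 0.00985). In cortex Trex1 stood at 141, 137 and 240.2 CPM in MIA LPS, against 84.2, 79.0 and 88.3 CPM in MIA saline (log2 fold change 1.04 ± 0.18, adjusted p = 0.000504; without replicate 3, 0.71, adjusted p = 0.00332). Adar and Samhd1 overlapped between treatments in both MIA groups and were not called, with log2 differences of 0.22 ± 0.32 and 0.16 ± 0.22 in striatum and 0.47 ± 0.29 and 0.28 ± 0.20 in cortex (adjusted p between 0.372 and 0.765). Ifi204 rose in both groups, with 68.6 and 75.9 CPM in MIA striatum LPS, against 8.23, 9.23 and 11.97 CPM in MIA striatum saline (log2 fold change 2.88 ± 0.38, adjusted p = 3.79e-05). In cortex Ifi204 stood at 75.3, 69.2 and 220.1 CPM in MIA LPS, against 13.8, 17.0 and 15.3 CPM in MIA saline (log2 fold change 2.99 ± 0.36, adjusted p = 1.11e-05, and 2.22 without replicate 3). Ifi207 rose to 37.2 and 47.5 CPM in MIA striatum LPS, against 10.0, 14.2 and 12.4 CPM in MIA striatum saline (log2 fold change 1.79 ± 0.33, adjusted p = 0.00093). In MIA cortex its log2 fold change was 1.68 ± 0.30 (adjusted p = 0.000719) and 1.14 without replicate 3 (adjusted p = 0.00473), with libraries at 58.1, 52.3 and 127 CPM after LPS and 18.6, 32.8 and 22.9 CPM after saline.

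**Figure D2:**
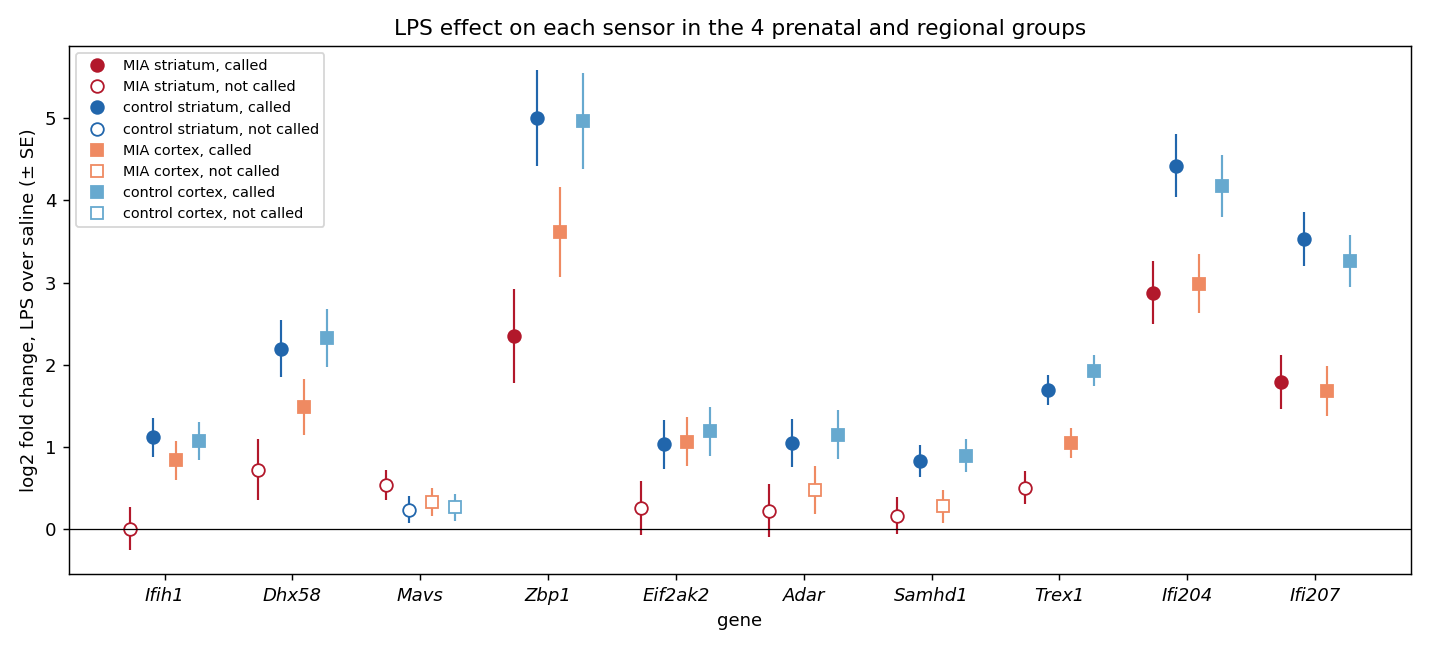
Log2 fold change of LPS over saline (vertical axis, ± SE) for each sensor in MIA striatum, control striatum, MIA cortex and control cortex, with filled symbols where the adjusted p was under 0.05. All 4 values of Mavs are open, whereas Zbp1, Ifi204 and Ifi207 are filled in all 4, with MIA values from 1.68 to 3.61 and control values from 3.26 to 5.00.

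Set directly against controls after LPS, the MIA libraries had lower levels of most sensors. Over both regions, with cortex and striatum libraries taken as separate, 7 of the 10 were called lower (all genes 0.823%). They were Ifih1, Dhx58, Zbp1, Samhd1, Trex1, Ifi204 and Ifi207. The median log2 difference over the 10 was -1.09 (all genes -0.01). The largest was that of Zbp1, at -2.07 ± 0.39 (adjusted p = 0.00923), followed by Ifi207 at -1.65 ± 0.23 (adjusted p = 0.00102), Ifi204 at -1.57 ± 0.26 (adjusted p = 0.00386) and Dhx58 at -1.29 ± 0.26 (adjusted p = 0.015). Trex1 differed by -1.20 ± 0.14, with the smallest adjusted p of the 10 (0.000571). Ifih1 differed by -0.98 ± 0.18 (adjusted p = 0.00725) and Samhd1 by -0.73 ± 0.15 (adjusted p = 0.0185). Eif2ak2 (-0.82 ± 0.22, adjusted p = 0.089), Adar (-0.78 ± 0.22, adjusted p = 0.11) and Mavs (0.04 ± 0.12, adjusted p = 0.955) were not called.

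Among the 23 libraries used, Trex1 and Ifi207 separated the prenatal groups completely after LPS. All 5 MIA LPS libraries lay below all 6 control LPS libraries for these 2 genes, as for 1.12% of all genes tested. Trex1 ran between 114 and 240.2 CPM in MIA LPS and between 267 and 401 CPM in control LPS. Ifi207 ran between 37.2 and 127 CPM in MIA LPS and between 150.4 and 256 CPM in control LPS. In MIA striatum LPS replicate 3, which was set aside, Trex1 stood at 308 CPM, inside the control LPS range, and Ifi207 at 44.5 CPM, below it (scaled over 24 libraries). With MIA cortex LPS replicate 3 left aside, the other 4 MIA LPS libraries lay below all 6 control LPS libraries for 8 of 10 sensors, all but Mavs and Adar (all genes 2.36%). Because that library stood out by its high sensor levels, leaving it out favours the sensors in this count, and the share of all genes is not a like measure. MIA cortex LPS replicate 3 itself lay inside the range of control cortex LPS for Ifih1, Mavs and Adar. For Eif2ak2 it lay above that range (36.8 CPM against 32.6 to 34.9 CPM), and for the other sensors below it.

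**Figure D3:**
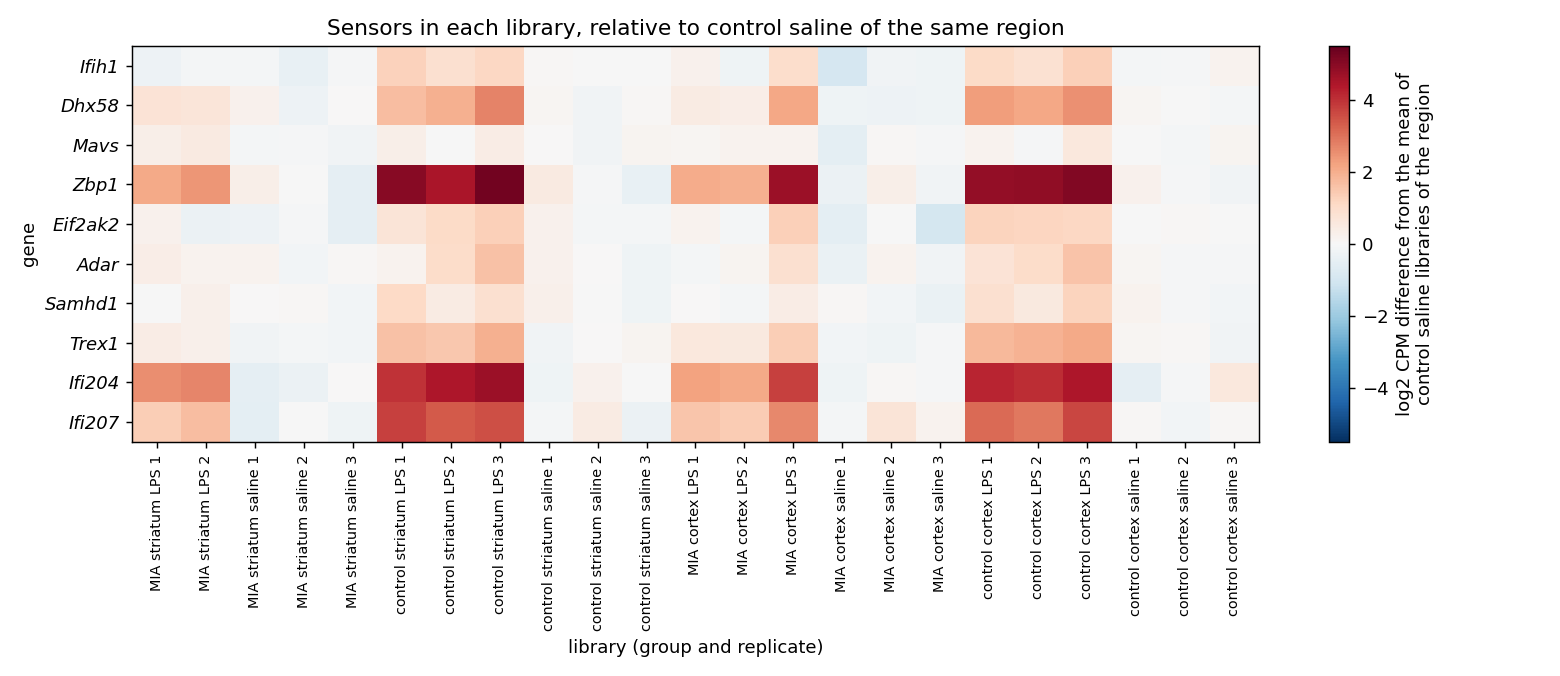
Log2 CPM of each sensor in each library minus the mean log2 CPM of the control saline libraries of the same region, with red for higher and blue for lower. The 6 control LPS columns are the reddest, the MIA LPS columns are paler except for MIA cortex LPS replicate 3, and the Mavs row is pale throughout.

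The calls depended on a few libraries and on the fit. Without MIA cortex LPS replicate 3, 9 of 10 sensors were called lower over both regions (all genes 1.59%). That library stood out by its high sensor levels, so leaving it out favours these calls. The share of all genes is not a like measure there. With MIA striatum LPS replicate 3 added back, 3 were called lower (all genes 0.277%): Ifih1, Ifi204 and Ifi207. Without MIA striatum LPS replicate 1 the count was 2, and without replicate 2 it was 3. When only the LPS groups entered the fit it was 0, with Trex1 at -1.19 (adjusted p = 0.0556) and Ifi207 at -1.64 (adjusted p = 0.0611). By region, edgeR called Trex1 (-1.35 ± 0.21, adjusted p = 0.017) and Ifi207 (-2.02 ± 0.35, adjusted p = 0.0253) lower in MIA striatum LPS than in control striatum LPS, 2 of 10 against 0.105% of all genes, none without either remaining MIA library, and 1 without control striatum LPS replicate 1. DESeq2, and edgeR with no filter on low counts, called 6 there. In cortex it called 0 of the 10 and 0 of all genes, although 8 sensors had an unadjusted p under 0.05 (all genes 4.88%) and DESeq2, like edgeR with no filter on low counts, called 3. Without MIA cortex LPS replicate 3 edgeR called 6 in cortex (all genes 0.523%): Ifih1, Dhx58, Zbp1, Trex1, Ifi204 and Ifi207. Leaving that library out favours this count in the same way.

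The size of the LPS response itself was compared between prenatal groups by the interaction, the LPS effect in MIA minus that in control averaged over both regions. No sensor was called by edgeR (all genes 0.0175%), while 8 of 10 had an unadjusted p under 0.05 (all genes 9.32%). With no filter on low counts edgeR called 4 (Zbp1, Trex1, Ifi204 and Ifi207), as did DESeq2. With a filter of at least 10 CPM in 3 libraries, or without control striatum LPS replicate 2, edgeR called 2 (Trex1 and Ifi207). The values nearest to the threshold were Trex1 at -1.04 ± 0.19 (adjusted p = 0.0512) and Ifi207 at -1.66 ± 0.31 (adjusted p = 0.0521). Zbp1 stood at -2.00 ± 0.54 (adjusted p = 0.208), Ifi204 at -1.37 ± 0.35 (adjusted p = 0.171) and Dhx58 at -1.16 ± 0.35 (adjusted p = 0.276). Mavs was the only sensor with a value above 0, at 0.18 ± 0.17 (adjusted p = 0.8). Without MIA cortex LPS replicate 3, 6 sensors were called with a smaller response in MIA (all genes called in either direction 0.623%). They were Zbp1 (-2.76, adjusted p = 1.4e-05), Trex1 (-1.20, adjusted p = 0.000129), Ifi207 (-1.92, adjusted p = 0.000234), Ifi204 (-1.75, adjusted p = 0.000728), Dhx58 (-1.57, adjusted p = 0.000836) and Ifih1 (-0.87, adjusted p = 0.047). MIA cortex LPS replicate 3 stood out by its high sensor levels, so leaving it out favours these calls. The share of all genes is not a like measure there. With MIA striatum LPS replicate 3 added back none was called, and the value of Zbp1 was -1.42 (adjusted p = 0.783). Within cortex and within striatum alone edgeR called 0 of 10, with 4 and 7 at an unadjusted p under 0.05 (all genes 4.34% and 7.72%), and DESeq2 called 0 in cortex and 1 in striatum.

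**Figure D4:**
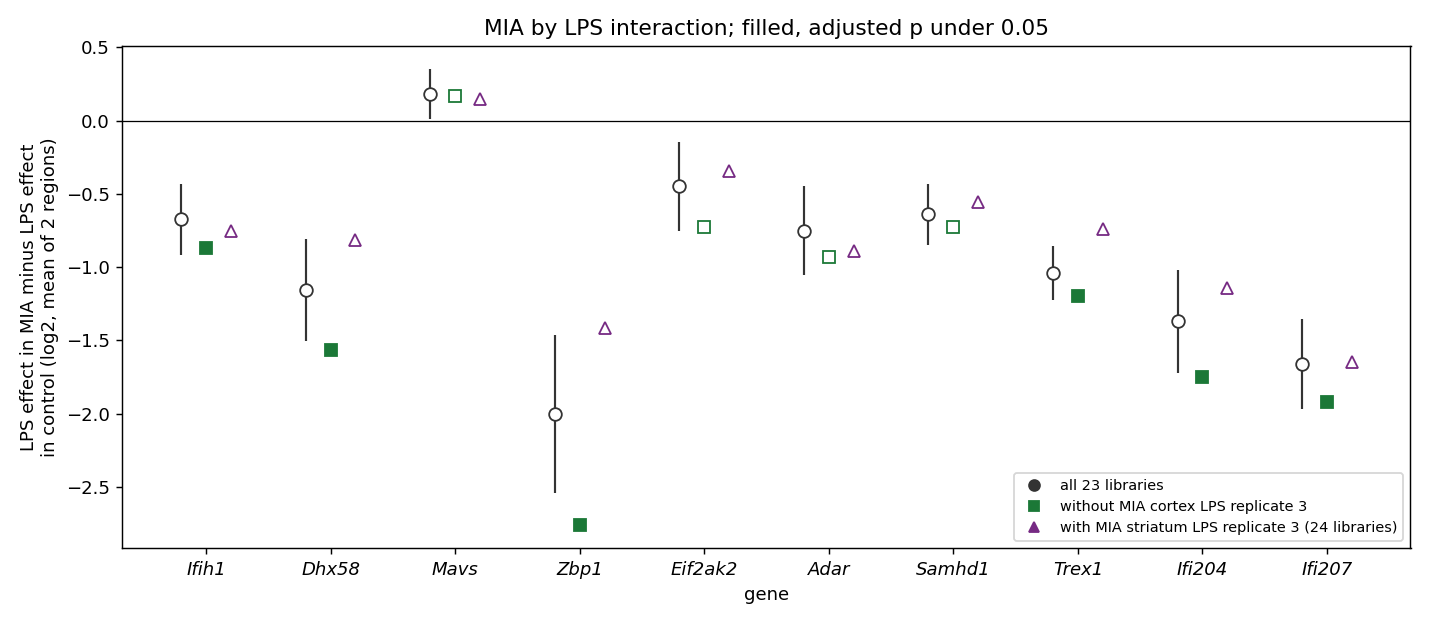
MIA by LPS interaction for each sensor, as the LPS effect in MIA minus the LPS effect in control on the log2 scale, averaged over both regions. Circles use the 23 libraries (± SE), squares leave out MIA cortex LPS replicate 3 and triangles add back MIA striatum LPS replicate 3. Filled symbols have an adjusted p under 0.05, and only squares are filled (6 of 10). The library left out for the squares stood out by its high sensor levels, so leaving it out favours those calls.

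At rest no sensor was called between the prenatal groups. Between MIA saline and control saline 0 of the 10 sensors were called in striatum, in cortex or over both regions by edgeR (all genes 0%), none had an unadjusted p under 0.05 (all genes 4.91%, 5.37% and 6.55%), and DESeq2 called 0. Over both regions the log2 differences ran from -0.37 to 0.01. Trex1 stood at 82.5, 86.7 and 85.3 CPM in MIA striatum saline and 83.2, 96.4 and 104 CPM in control striatum saline. Zbp1 averaged 1.64 ± 0.454 CPM in MIA striatum saline and 1.73 ± 0.580 CPM in control striatum saline (SD, n = 3 each). With 3 libraries a group, differences larger than such spreads could go uncalled. Ifih1 averaged 33.9 ± 8.68 CPM in MIA cortex saline and 45.4 ± 5.31 CPM in control cortex saline, without overlap (adjusted p = 0.949 by edgeR). Ifih1 in striatum, and Dhx58 and Eif2ak2 in cortex, were also lower in MIA saline without overlap and were not called. The other sensors overlapped in both regions.

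Nor was any sensor called between the regions when libraries were taken as unpaired. Between striatum and cortex at rest, edgeR called 0 of the 10 in control mice (all genes 0.502%) and 0 in MIA mice (all genes 0.0817%), with 0 and 1 at an unadjusted p under 0.05 (all genes 11.8% and 4.57%), and DESeq2 called 0 in both. Most values lay below 0, with a median log2 difference (striatum minus cortex) of -0.29 in control saline (all genes -0.05) and -0.16 in MIA saline (all genes 0.00). The lowest was that of Ifi207 in MIA saline, at 10.0, 14.2 and 12.4 CPM in striatum and 18.6, 32.8 and 22.9 CPM in cortex (log2 difference -1.02 ± 0.30, adjusted p = 0.468). The LPS response did not differ between regions past the threshold for any sensor in control mice (log2 -0.23 to 0.27) or in MIA mice (-1.26 to 0.21), with all adjusted p at 1 by edgeR (all genes called 0% in both). At an unadjusted p under 0.05 there were 0 in control and 1 in MIA (all genes 5.52% and 2.79%), and DESeq2 called 0. Eif2ak2 averaged 22.9 ± 4.55 CPM in control striatum LPS and 33.8 ± 1.12 CPM in control cortex LPS (SD, n = 3 each), without overlap. Dhx58 averaged 47.0 ± 18.6 CPM in control striatum LPS and 74.5 ± 9.81 CPM in control cortex LPS (SD, n = 3 each), with overlap.

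Control cortex LPS had the highest group mean of every sensor. For Trex1 the order was control cortex LPS (357 CPM), control striatum LPS (307), MIA cortex LPS (173), MIA striatum LPS (120.1) and then the 4 saline groups (83.8 to 94.7 CPM). Only the first pair and the saline groups overlapped with a neighbour. For Ifi204 the order was the same among LPS groups, at 305, 253, 122 and 72.3 CPM, but MIA cortex LPS overlapped with both of its neighbours. For Mavs MIA striatum LPS came second (114 CPM) and every neighbouring pair overlapped. For Ifih1 MIA striatum LPS (37.3 CPM) ranked below both control saline groups (42.6 CPM in striatum and 45.4 CPM in cortex).

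Per kilobase of exon, Trex1 was the most abundant of the 10. In control cortex it averaged 311 CPM per kilobase after LPS and 81.6 after saline, and Mavs averaged 34.3 after LPS and 28.6 after saline. After LPS the levels of Ifi204 (85.6) and Ifi207 (56.5) were above that of Mavs, whereas after saline (4.73 and 5.88) they were below it. Zbp1 averaged 20.8 CPM per kilobase in control cortex LPS and 0.661 in control cortex saline. Eif2ak2 was the lowest after LPS, at 6.61. The exons of Trex1 (1147 bases) all lie within those of Atrip on the same strand, and its deposited values were not whole in 23 of 23 libraries, so its level depends on how reads were shared. Atrip itself had between 10.9 and 24.1 CPM. It was called higher with LPS in control striatum by 0.60 ± 0.17 on the log2 scale (adjusted p = 0.0153) and in control cortex by 0.52 ± 0.17 (adjusted p = 0.0405), and was not called in MIA striatum (0.46 ± 0.19, adjusted p = 0.149) or MIA cortex (0.15 ± 0.17, adjusted p = 0.691). Adar shares 1365 exon bases with Chrnb2 on the opposite strand, whose level was at most 2.83 CPM.

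The sensors moved together across libraries, with Mavs the least. Over the 23 libraries the highest Pearson r of log2 CPM was 0.98 between Zbp1 and Ifi207 and the lowest 0.54 between Mavs and Eif2ak2, with group differences included. With group means removed those 2 values were 0.71 and 0.10. Mavs was then less set apart, with 0.58 between Ifih1 and Mavs and 0.14 between Samhd1 and Ifi204. MIA cortex LPS replicate 3, which was high in its group for every sensor, enters these values. Among all other genes tested, the one most like Zbp1 was Oas1a (r = 0.99), a sensor of double-stranded RNA in the oligoadenylate pathway. That of Trex1 was Phf11b (0.98), that of Dhx58 Lgals3bp (0.98), that of Ifi204 the chemokine Ccl12 (0.98) and that of Ifi207 its family member Ifi211 (0.98). Ifih1 was most like Slfn8 (0.96), Samhd1 most like the MHC class I gene H2-K1 (0.94), Adar most like Parp9 (0.93) and Eif2ak2 most like Parp14 (0.91). Mavs was most like Atp13a1 (0.94). These are descriptions over libraries that share groups, depth and scaling.

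The partners of these sensors were taken from lists chosen by function. Of 23 RNA sensing partners, LPS raised 5 and lowered 1 in MIA striatum. The counts were 11 and 1 for control striatum, 6 and 1 for MIA cortex, and 8 and 2 for control cortex. Of all genes tested, LPS raised 6.93% and lowered 3.31% in MIA striatum, 12.7% and 8.15% in control striatum, 7.05% and 4.85% for MIA cortex, and 10.9% and 7.25% for control cortex, and the counts of each list below stand against these shares. Ddx58 (RIG-I), the sister helicase of Ifih1, averaged 65.5 CPM in control striatum LPS and 34.1 CPM in control striatum saline (log2 fold change 0.94 ± 0.28, adjusted p = 0.0215). It averaged 27.3 CPM in MIA striatum LPS and 30.5 CPM in MIA striatum saline (-0.16 ± 0.32, adjusted p = 0.835). After LPS over both regions Ddx58 was lower in MIA than in control, by -1.10 ± 0.22 (adjusted p = 0.0136). Further down the path, the kinase gene Ikbke averaged 13.8 CPM in control cortex LPS and 0.0780 CPM in control cortex saline (log2 fold change 7.39 ± 1.00, adjusted p = 2.28e-05), and the transcription factor Irf7 rose by 3.97 ± 0.60 (adjusted p = 6.82e-05). Ifit1, which binds foreign RNA ends, rose by 3.35 ± 0.51 in control cortex (adjusted p = 7.82e-05), and the Oas-like gene Oasl1 by 4.68 ± 0.80 (adjusted p = 0.000267). The kinase Tbk1, by contrast, had a log2 difference of -0.25 ± 0.18 in control cortex (adjusted p = 0.398). Rnf135, a ubiquitin ligase of RIG-I, fell in MIA striatum by 1.19 ± 0.19 on the log2 scale (adjusted p = 0.00019) and in MIA cortex by 0.83 ± 0.16 (adjusted p = 0.00143).

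Relatives of Ifi204 and Ifi207 rose with LPS in control mice, while STING and Aim2 were not called. Of 20 DNA sensing partners tested (24 listed), LPS raised 2 for MIA striatum, 8 for control striatum, 6 for MIA cortex and 7 for control cortex, and lowered none. The count in MIA striatum was near the share of all genes (6.93%). In control cortex Ifi211 averaged 46.2 CPM after LPS and 4.97 CPM after saline (log2 fold change 3.22 ± 0.39, adjusted p = 7.11e-06), and Ifi209 averaged 127 CPM after LPS and 12.7 CPM after saline (3.32 ± 0.49, adjusted p = 6.18e-05). Ifi213 rose there by 4.03 ± 0.83 (adjusted p = 0.0015) and Ifi205 by 5.21 ± 1.00 (adjusted p = 0.00102). Over both regions after LPS, 4 of the 20 were lower in MIA, Ifi209 by -2.12 ± 0.36 (adjusted p = 0.00451) and Ifi211 by -1.50 ± 0.28 (adjusted p = 0.00923) among them. Tmem173 (STING), the adaptor of the cytosolic DNA pathway, averaged 591 CPM in control cortex LPS and 579 CPM in control cortex saline (0.03 ± 0.16, adjusted p = 0.942). Aim2, the DNA sensor of an inflammasome, had a log2 difference of 0.09 ± 0.21 in control cortex (adjusted p = 0.856). Cgas, which makes the ligand of STING, was called in control striatum (1.04 ± 0.20, adjusted p = 0.000759) and not in control cortex (0.33 ± 0.20, adjusted p = 0.292). The difference between these effects, striatum minus cortex, was 0.71 ± 0.28 and was not called (adjusted p = 0.8).

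Among 19 other genes of nucleic acid turnover and editing, LPS raised 2 and lowered 0 in MIA striatum. The counts were 5 and 0 for control striatum, 1 and 3 for MIA cortex, and 4 and 3 for control cortex. The higher counts in both MIA groups were near the shares of all genes (6.93% in striatum and 7.05% in cortex). Isg20, an RNA exonuclease, rose by 2.32 ± 0.37 in control cortex (adjusted p = 0.000124), and over both regions after LPS it was lower in MIA by -1.50 ± 0.27 (adjusted p = 0.00717). The RNase H2 subunits Rnaseh2b (0.85 ± 0.23, adjusted p = 0.0122) and Rnaseh2a (0.56 ± 0.16, adjusted p = 0.0194) rose in control cortex, and the lysosomal ribonuclease Rnaset2b fell by 0.53 ± 0.15 (adjusted p = 0.0201). Among 16 partners of Zbp1 and Eif2ak2, 4 were called higher in MIA striatum, 5 in control striatum, 4 for MIA cortex and 3 for control cortex, where Casp6 was also lower (-0.65 ± 0.18, adjusted p = 0.0152). Of all genes, 6.93% were called higher in MIA striatum, 12.7% in control striatum, 7.05% for MIA cortex and 10.9% for control cortex. Eif2s1, the translation factor that PKR phosphorylates, rose in all 4 groups, by 1.02 ± 0.16 in MIA striatum (adjusted p = 0.00025), 1.29 ± 0.15 in control striatum (adjusted p = 3.44e-06), 1.23 ± 0.15 in MIA cortex (adjusted p = 1.2e-05) and 1.19 ± 0.15 in control cortex (adjusted p = 9.2e-06). Mlkl, the effector of necroptosis downstream of Zbp1, rose in control cortex by 3.05 ± 0.81 (adjusted p = 0.0107), and the kinase Ripk3 by 0.80 ± 0.23 (adjusted p = 0.0194).

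Interferon genes themselves were hardly detected. Of 15 interferon ligands and receptors only 6 passed the filter, and 1 was called in any LPS comparison, the receptor chain Ifngr2 in control striatum (0.54 ± 0.13, adjusted p = 0.00528). Ifnb1 averaged 0.127 CPM in control striatum LPS and 0.0322 CPM in control striatum saline, and 0.338 CPM in control cortex LPS and 0.216 CPM in control cortex saline (adjusted p = 0.409 and 0.828). Ifna1, Ifna2, Ifna4, Ifnk, Ifne, Ifnl2 and Ifnl3 had no count in any library, and Ifng had at most 10. The type I receptor chains were present, with Ifnar1 at 98.6 CPM in MIA striatum LPS and 69.7 CPM in MIA striatum saline (0.50 ± 0.29, adjusted p = 0.353).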

How the data were processed

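The authors deposited 1 table of expected counts per gene and library. Per the submitters' processing notes STAR, RSEM and DESeq2 were used, and their versions and the genome build are not given in the sources used here. Per the labels' protocols, libraries followed a modified Smart-Seq2 protocol with oligo-dT priming, and strand is not stated, so reads of overlapping genes cannot be told apart. Of the deposited expected counts above 0, 20.3% were not whole, and all were rounded to whole numbers. Gene identifiers matched a symbol for 55141 of 55487 genes.

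The tests used edgeR 4.0.16 in R 4.3.3: TMM scaling, a low-count filter by group (filterByExpr, with a count of 10 and a total of 15 as minimum), and a quasi-likelihood model with 1 term per group over 23 libraries (15 residual degrees of freedom). Two-sided p-values were adjusted by Benjamini-Hochberg within each of 17 comparisons, and the scripts were tested on simulated data. Log2 CPM used a prior count of 2. DESeq2 1.42.0, other scalings, filters, library sets and fits were alternatives. Exon lengths came from GENCODE on GRCm38.

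The 10 genes and all gene lists were chosen with earlier results of these data known. All 10 were named, with up to 4 called genes of each list in control cortex by smallest adjusted p and up to 2 in each other comparison. Tbk1, Tmem173, Aim2, Cgas, Ifnb1, Ifnar1 and Ddx58 were named as well after their values were seen. Intervals and p-values rest on 2 or 3 libraries a group.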

Additional observations from a re-analysis of the deposited data

Results flagged for a closer look

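MIA striatum LPS replicate 3, which its title marks as excluded, was not used in the comparisons, and it had sensor signal above the range of MIA striatum saline for 8 of the 10 genes. Its levels, in CPM scaled over 24 libraries, were 47.3 for Dhx58, 98.7 for Mavs, 39.7 for Zbp1, 16.3 for Eif2ak2, 68.7 for Samhd1, 308 for Trex1, 151 for Ifi204 and 44.5 for Ifi207. For Dhx58, Zbp1, Eif2ak2, Samhd1, Trex1 and Ifi204 these were also above both other MIA striatum LPS libraries. Trex1 stood at 113 and 126 CPM in those 2 libraries, and Zbp1 at 7.27 and 9.35 CPM. Ifih1 (25.7 CPM) and Adar (26.3 CPM) lay below the saline range. In the same library the 6 oligodendrocyte markers summed to 6430 CPM, the 8 neuronal markers to 171 CPM and the 8 microglial markers to 23909 CPM. The part of these cells in its sensor levels was not tested.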

How the results depend on the processing

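Over 17 comparisons and all alternatives, 260 counts of called sensors stayed within 1.5 times the reported count, 19 were higher and 11 lower, and no called sensor changed sign. With only the compared groups in the fit, the called sensors numbered 4 for LPS in MIA cortex (7 reported), 5 for LPS in MIA striatum (3), 0 for MIA after LPS over both regions (7) and 0 for MIA in striatum LPS (2). With MIA striatum LPS replicate 3 added back they numbered 5 for LPS in MIA striatum, 3 for MIA after LPS over both regions and 1 for MIA in striatum LPS. DESeq2 called 1 for the interaction in striatum (0), 4 for the interaction over both regions (0), 3 for MIA in cortex LPS (0) and 6 for MIA in striatum LPS. With no filter on low counts there were 4 for the interaction over both regions, 3 for MIA in cortex LPS and 6 for MIA in striatum LPS, and with at least 10 CPM in 3 libraries there were 2 for the interaction over both regions. Leaving out 1 library at a time gave 4 to 7 for LPS in MIA cortex, 2 to 3 for LPS in MIA striatum, 7 to 9 for LPS in control striatum, 8 to 9 for LPS in control cortex, 0 to 5 for the interaction in cortex, 0 to 6 for the interaction over both regions, 2 to 9 for MIA after LPS over both regions, 0 to 6 for MIA in cortex LPS and 0 to 2 for MIA in striatum LPS. Besides the libraries named above, counts moved by over 1.5 times without control striatum LPS replicate 1 (1 for MIA in striatum LPS) and replicate 2 (2 for the interaction over both regions). Smaller moves came with others: 7 for LPS in control striatum when LPS replicate 3 or saline replicate 3 was dropped, and 8 when saline replicate 2 was, 8 for LPS in control cortex without LPS replicate 3, 5 and 6 for LPS in MIA cortex without saline replicates 1 and 3, 2 for LPS in MIA striatum without LPS replicate 2 or saline replicate 3, and, for MIA after LPS over both regions, 6 without control cortex LPS replicate 3 or MIA cortex LPS replicate 2 and 8 without control striatum LPS replicate 1. The median LPS by region interaction in MIA (-0.40) ranged between -0.56 and 0.089 when 1 library was left out, with the upper end without MIA cortex LPS replicate 3. Apart from settings that change the genes or libraries tested, the cause was not tested.

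Replicate numbers are shared between groups, but the labels do not say that they mark an animal, litter or day. Across the 11 pairs of cortex and striatum of 1 number, prenatal group and treatment, deviations from group means correlated at -0.20 to 0.31 (median 0.18), above 0.1 in 8. Among 154 pairs of libraries of different number and group, 22 were above 0.1 (median -0.04). In the data 10 of 11 cortex libraries correlated best with their own number. The main fit took all libraries as separate because the labels give no pairing, so p-values over both regions may count an animal more than once. With the replicate number as a block, 5 sensors were called for LPS in MIA striatum, Mavs (adjusted p = 0.0265) and Trex1 (0.0388) being added, 3 for the interaction over both regions (Trex1, Ifi204 and Ifi207, adjusted p of 0.0259 to 0.0363), 2 for MIA in cortex LPS and 4 for MIA in striatum LPS. With cortex and striatum of 1 number as a block, 1 was called for striatum minus cortex in MIA saline (0), Ifi207 (-0.996, adjusted p = 0.0396), and the median LPS by region interaction in MIA became 0.082, the other reversal.

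With 2 or 3 libraries a group, differences of several standard errors could go uncalled. Trex1, for MIA in cortex LPS, had a log2 difference of -1.05 ± 0.18 and was not called by edgeR (adjusted p = 0.0559). Zbp1 rests on the fewest reads at rest.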
